A study of Mus musculus with 6 samples.

Results

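The genes described here were grouped as genes of cholesterol uptake and of the lipid droplet. They were 8 rows of the gene table, of 27998 in all, and each symbol matched 1 row. The symbols were Scarb1, Apoe, Npc1, Soat1, Plin2, Lipe, G0s2 and Angptl4. Of these, G0s2 encodes an inhibitor of a triglyceride lipase and Angptl4 an inhibitor of lipoprotein lipase. Cells of the adrenal cortex make corticosteroids from cholesterol. In mice much of that cholesterol arrives in high-density lipoprotein, is taken up by the receptor SR-BI, and is stored in the cytoplasm as cholesteryl ester. When pituitary adrenocorticotropic hormone stimulates the gland, the ester is hydrolysed and the sterol is passed to the mitochondria.

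Single cells were profiled by 10x Genomics droplet sequencing from C57BL/6 mice aged 10 weeks. The stress group was exposed to chronic social defeat, a model of repeated attack by a dominant mouse, for 21 days, and the other group was the unstressed control. Each tissue (adrenal gland, pituitary and the hypothalamic paraventricular nucleus with its surroundings, PVN) gave 1 stress and 1 control library, each from the pooled tissue of 5 mice, so there were 6 libraries and 1 library per group. Without replicate libraries the spread between mice could not be estimated, no test was made, and every difference below is between a pair of pools.

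The members were chosen by symbol, and their levels were not used to group the cells. All intervals are 95% and cover counting error only. A level is given in CPM, the UMIs (molecules counted) of a gene summed over the cells of a class and scaled to all UMIs of that class. Differences are log2 ratios with stress on top, called when the gene had at least 50 UMIs over both libraries and differed by at least 1.5-fold. CPM values are compared between cells and libraries for 1 gene at a time, not between genes.

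After filtering, 2742 stress and 2161 control adrenal cells remained. The adrenal cortex-like class, which carried all 9 cortex markers in each of its 8 clusters, held 1725 stress cells (62.9% of kept cells) and 1546 control cells (71.5%). Its depth was close between libraries, with 22186267 UMIs in stress and 22225610 in control and medians of 11214 and 11592.5 UMIs per cell. The barcodes shared by any pair of the 6 libraries numbered 10 to 39. A pair of cortex clusters came almost wholly from 1 library each: cluster 8 held 256 stress and 36 control cells, and cluster 5 held 38 stress and 359 control cells. Both were rich in Cyp11b1, the enzyme of the last step to corticosterone, and results that rest on the make-up of the class are given with and without them. Less unevenly, cluster 2 held 458 stress and 188 control cells, and cluster 6 held 123 stress and 253 control cells.

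The regions directly upstream of G0s2 and Apoe, the members with the lowest and the highest ratio in the cortex, are shown for reference. They are the 250 bases before a RefSeq start site on GRCm38.p6, read 5′ to 3′ on the gene's strand. G0s2 lies at chr1:193273189-193273438 and Apoe at chr7:19699189-19699438, both on the minus strand. Capitals mark matches on either strand to 3 core promoter motifs. The TATA box was searched as TATAAA and was found in 12.4% of 32851 such windows. The CCAAT box, searched by those letters, was found in 33.8%. The GC box was searched as GGGCGG and was found in 32.7%.
G0s2: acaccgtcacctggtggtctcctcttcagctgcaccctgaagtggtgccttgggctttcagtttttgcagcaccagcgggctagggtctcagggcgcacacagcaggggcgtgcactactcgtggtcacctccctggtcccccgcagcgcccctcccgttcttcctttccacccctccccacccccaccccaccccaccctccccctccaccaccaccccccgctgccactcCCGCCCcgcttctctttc
Apoe: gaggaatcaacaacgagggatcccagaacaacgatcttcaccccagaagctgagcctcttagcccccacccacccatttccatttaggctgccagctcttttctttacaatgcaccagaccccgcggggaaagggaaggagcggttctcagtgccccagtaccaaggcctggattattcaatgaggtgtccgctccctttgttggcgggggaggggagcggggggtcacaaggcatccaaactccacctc
The G0s2 window was GC-rich (67.2%) and held a single match, GGGCGG on the opposite strand 18 bases before the start site. The RefSeq table holds 3 Apoe windows, and the one shown (57.2% GC), which lies farthest upstream, held none. The window at chr7:19698622-19698871 held TATAAA on the gene's strand 96 bases before its start site and, overlapping it, on the opposite strand 100 bases before the start site, and the third held none. Wider windows, which also took in 50 bases after the start, were found for 5 members (8 windows, for Soat1, G0s2, Plin2, Apoe and Lipe). None of them held CAAGGTCA (NR5A1 type), TGACGTCA (cAMP response element) or TCACNCCAC (sterol response element type) on either strand, against 1.56%, 1.79% and 1.24% of all 32851 windows. This says only that these letters are not in these windows. The libraries count molecules by a tag at the 3′ end and do not measure promoter use.

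Across the cell classes, the members did not share 1 pattern. There were 23 classes with at least 50 cells in both libraries: 3 adrenal, 12 pituitary and 8 PVN. Soat1 was highest in the adrenal cortex, while Scarb1 and Lipe had the cortex as the next class after a vascular one. The highest levels of Plin2, Apoe, G0s2, Angptl4 and Npc1 were in other cell types.

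**Figure D1:**
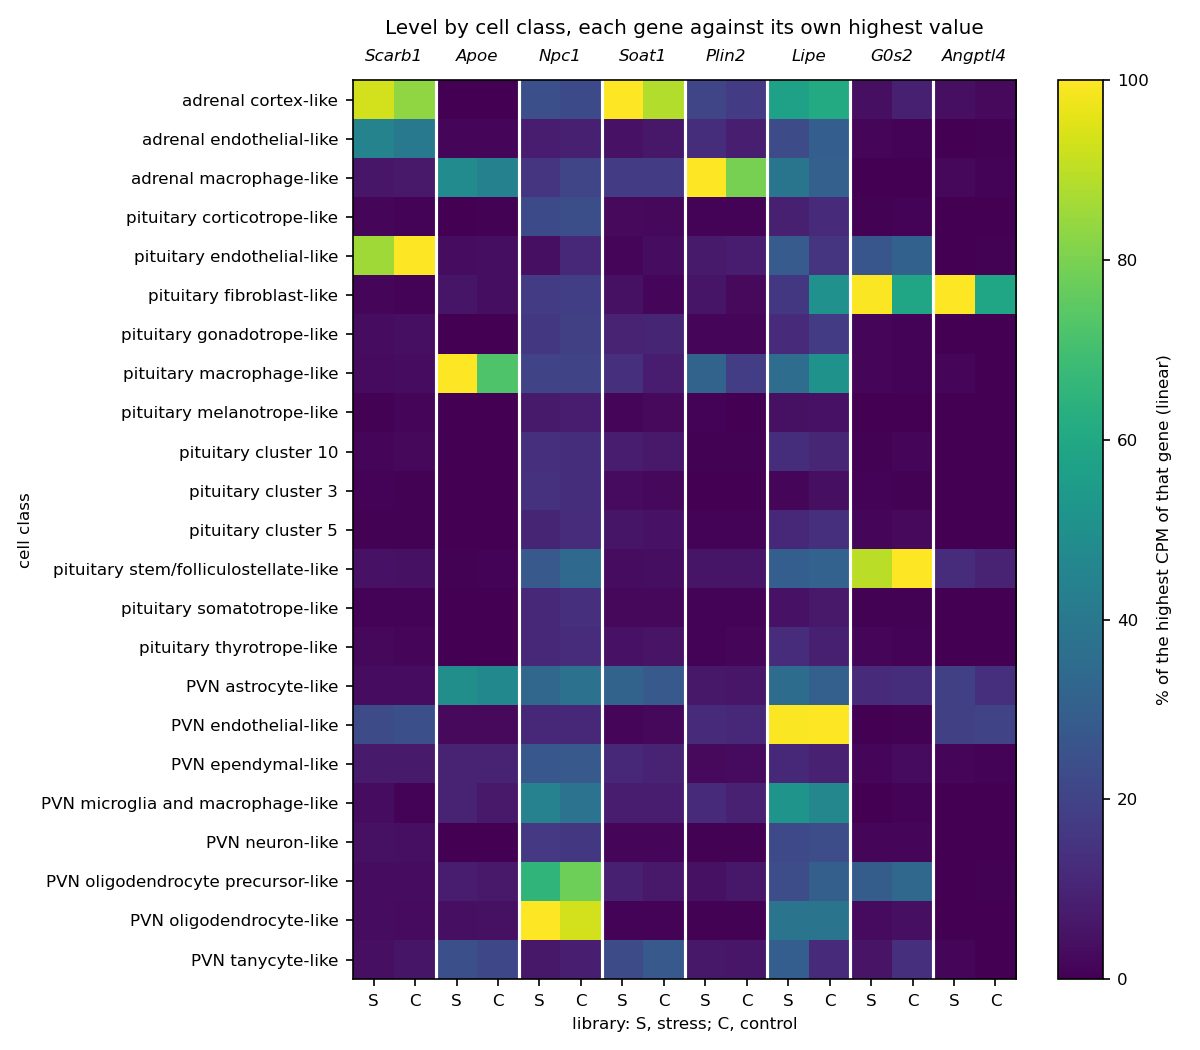
Level of each member in each cell class (rows) and library (columns; S, stress; C, control), on a linear colour scale as a percentage of that gene's own highest CPM. Soat1 peaks in adrenal cortex-like cells, Plin2 in adrenal macrophage-like cells, and Npc1 in PVN oligodendrocyte-like cells.

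Scarb1, which encodes SR-BI, was read at 602 CPM in stress and 701 CPM in control in pituitary endothelial-like cells. In adrenal cortex-like cells it stood at 655 CPM in stress and 585 CPM in control. The order of these classes thus differed between the libraries, but in stress their intervals overlapped (541 to 667 CPM and 644 to 665 CPM). Adrenal endothelial-like cells had 315 CPM in stress and 283 CPM in control, and PVN endothelial-like cells 164 and 171 CPM. The other 19 classes lay at or below 51.3 CPM in stress and 49.5 CPM in control.

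RNA released from cortex cells into the suspension can reach other droplets, so Scarb1 was set against Cyp11a1, the enzyme that opens steroid synthesis. Per 100 Cyp11a1 UMIs, cortex cells held 14.6 Scarb1 UMIs in stress and 11.8 in control. Macrophage-like cells held 16.3 in stress and 18.4 in control, above the cortex ratio in both libraries and more so in control. Endothelial-like cells held 102 in stress and 114 in control, several times the ratio of cortex cells in both libraries. The part of free cortex RNA in the Scarb1 counts of either class was not tested.

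Soat1 encodes the acyltransferase that esterifies cholesterol for storage. It averaged 505 CPM in stress and 447 CPM in control cortex cells, and the next classes were PVN astrocyte-like cells with 161 and 140 CPM and tanycyte-like cells with 118 and 140 CPM. A Soat1 UMI was found in 97.6% of stress and 97.0% of control cortex cells, against 41.6% and 43.0% of adrenal macrophage-like cells, whose median depth was 6388 and 6217 UMIs.

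Plin2 encodes the coat protein found on droplets in most cell types. It was highest in adrenal macrophage-like cells, with 879 CPM in stress and 698 CPM in control (log2 ratio 0.33, interval 0.24 to 0.43). Pituitary macrophage-like cells followed with 278 CPM in stress and 161 CPM in control, and adrenal cortex-like cells with 182 and 155 CPM. Lipe encodes hormone-sensitive lipase, which also hydrolyses cholesteryl esters in the adrenal. It had 51.6 CPM in stress and 51.9 CPM in control PVN endothelial-like cells, then 29.7 and 31.7 CPM in adrenal cortex-like cells.

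G0s2, an inhibitor of the triglyceride lipase ATGL, was highest in pituitary stem/folliculostellate-like cells, with 604 CPM in stress and 673 CPM in control. In pituitary fibroblast-like cells it had 669 and 397 CPM, with overlapping intervals between these classes in stress, and the cortex ranked seventh. Apoe, a ligand of lipoprotein receptors, was highest in pituitary macrophage-like cells with 71158 CPM in stress and 51505 CPM in control. PVN astrocyte-like cells had 35244 and 33215 CPM and adrenal macrophage-like cells 34377 and 31144 CPM.

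Npc1, which moves cholesterol out of late endosomes, was led by PVN oligodendrocyte-like cells with 160 CPM in stress and 149 CPM in control. Oligodendrocyte precursor-like cells had 105 and 125 CPM, and cortex cells 38.8 and 36.1 CPM. Angptl4, a secreted inhibitor of lipoprotein lipase, was led by pituitary fibroblast-like cells with 337 CPM in stress and 199 CPM in control. The cortex was the fifth class for Angptl4, with 13.6 and 8.82 CPM.

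In adrenal cortex-like cells, Apoe and Angptl4 were higher in stress, G0s2 was lower, and the receptor, storage and hydrolase genes differed by less than 1.5-fold. All 8 members reached the count minimum. Of these, 2 were called higher, 1 was called lower and 5 fell inside the threshold, with a median log2 ratio of 0.17. Among all 11489 genes at the minimum in these cells, 6.12% were called (2.82% higher and 3.3% lower), and the median was 0.003.

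**Figure D2:**
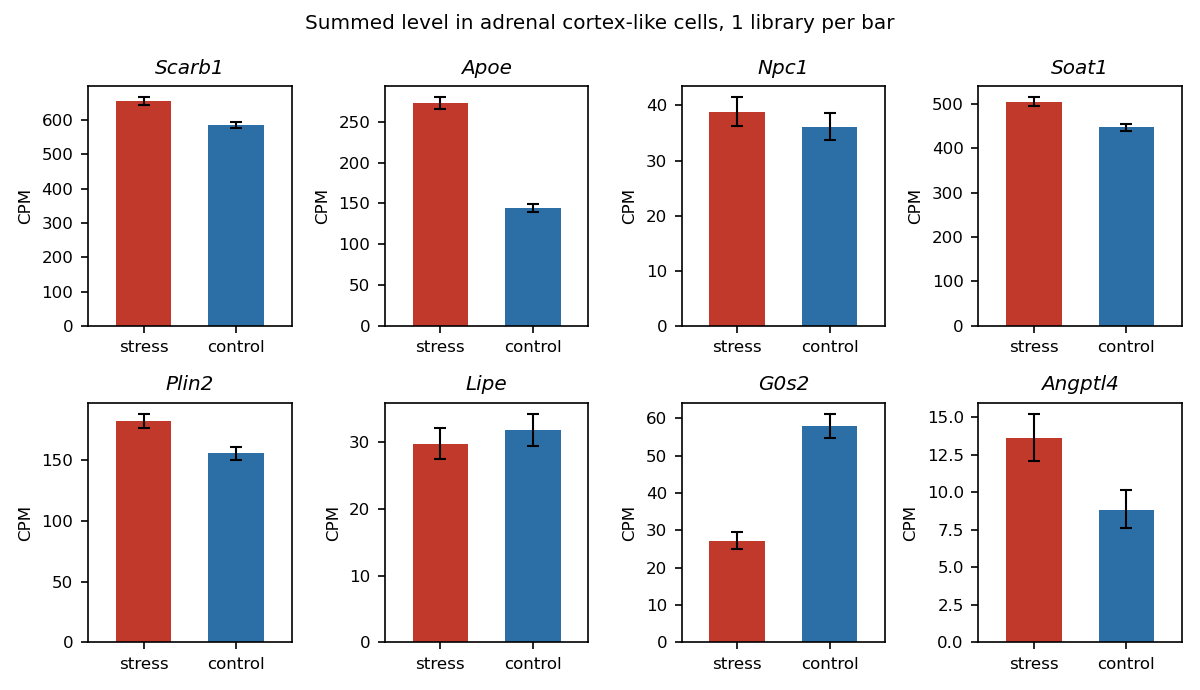
Level of each member in adrenal cortex-like cells in CPM (linear axes from 0, each panel with its own scale), stress left and control right, with 1 library per bar and exact 95% Poisson intervals. G0s2 stands at 27.2 in stress and 57.9 in control, and Apoe at 273 in stress and 145 in control.

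Of the uptake genes, Scarb1 had 14523 UMIs in stress and 13001 in control cortex cells, and its ratio was 1.12-fold (interval 1.09 to 1.15). The intervals of the 2 libraries did not overlap, although the difference was small. Scarb1 lies on chromosome 5, 125277087 to 125341094 on the minus strand (GRCm38).

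Apoe (chromosome 7, 19696109 to 19699188, minus strand) had 6052 UMIs in stress and 3216 in control cortex cells, a log2 ratio of 0.91 (interval 0.85 to 0.98). It was higher in stress in each of the 8 cortex clusters, by 0.61 to 1.16. The share of cortex cells with an Apoe UMI was 91.6% in stress and 71.9% in control, and 23.0% and 10.2% after every cell was thinned to 1000 UMIs.

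Markers of macrophages, the adrenal cells with the most Apoe, moved in the same way within the cortex class. The 8 macrophage markers, none of them at 0, summed to 98.5 CPM in stress and 46.5 CPM in control cortex cells, a log2 ratio of 1.08. They summed to 24551 and 22435 CPM in macrophage-like cells. Cortex cells without a UMI of any of these markers made up 40.0% of the class in stress and 67.3% in control. In them Apoe had 235 CPM in stress and 112 CPM in control, a log2 ratio of 1.07.

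Per 100 UMIs of C1qa, a macrophage complement gene, cortex cells held 1421 Apoe UMIs in stress and 1787 in control, against 671 and 676 in macrophage-like cells. The cortex ratio was thus above that of macrophages in both libraries. In adrenal endothelial-like cells Apoe ran the other way, with 904 CPM in stress and 1288 CPM in control, and macrophage markers there summed to 172 and 300 CPM. The part of macrophage RNA in the Apoe difference was not tested. When cortex cells were chosen by a marker gate in place of clusters, the Apoe log2 ratio was 0.48 and Apoe was no longer called. That gate could also take in cells of unnamed clusters. Among these was cluster 16, with macrophage and cortex markers (23 stress and 19 control cells), and its part in the gated ratio was not tested.

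Npc1 (chromosome 18, 12189692 to 12236400, minus strand) had 860 UMIs in stress and 802 in control cortex cells, and its ratio of 1.07-fold had an interval of 0.975 to 1.18. Its gene overlaps Rmc1 on the opposite strand over 967 bases. The interval included no difference.

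Of the storage genes, Soat1 had 11201 UMIs in stress and 9928 in control, a ratio of 1.13-fold (interval 1.10 to 1.16). Soat1 lies on chromosome 1, 156424525 to 156474331, and Plin2 on chromosome 4, 86648386 to 86670060, both on the minus strand. Plin2 had 4044 UMIs in stress and 3456 in control, a ratio of 1.17-fold (interval 1.12 to 1.23). Both were slightly higher in stress, with intervals that did not overlap between libraries.

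Of the genes of ester release, Lipe had 659 UMIs in stress and 705 in control, and its ratio of 0.936-fold had an interval of 0.841 to 1.04. The gene (chromosome 7, 25379527 to 25398710, minus strand) is overlapped over 19184 bases by an antisense gene, 4732471J01Rik, with 83 UMIs in stress and 73 in control cortex cells. Whether the counting used strand was not given in the sources used here.

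G0s2 (chromosome 1, 193272161 to 193273217, minus strand) had 603 UMIs in stress and 1287 in control cortex cells, a log2 ratio of -1.09 (interval -1.23 to -0.95). This was the largest difference among the members. A G0s2 UMI was found in 21.6% of stress and 37.6% of control cortex cells, against 1.29% and 0.656% of macrophage-like cells of lower depth. The gene lies wholly within Lamb3 on the opposite strand, for which 8 UMIs were counted in each library. Per 100 Cyp11a1 UMIs, cortex cells held 0.61 G0s2 UMIs in stress and 1.16 in control.

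Angptl4 (chromosome 17, 33773750 to 33781830, minus strand) had 302 UMIs in stress and 196 in control cortex cells, a ratio of 1.54-fold (interval 1.28 to 1.86). The call stood close to the threshold, and at most 3 UMIs came from any 1 cell. It was lost when the control library's cluster sizes were used as weights (log2 ratio 0.33). The difference was larger in the sum of the other adrenal cells: after it was subtracted, -0.15 remained. These were all kept cells outside the class, among them unnamed clusters that also carried cortex markers. Angptl4 was sparse in the named classes, with 22 UMIs in stress and 6 in control macrophage-like cells. Endothelial-like cells had 0 and 1. Adipocyte markers, a possible other source of droplet genes, summed to 0.09 CPM in stress and 0.22 CPM in control cortex cells, and Adipoq, Cidec and Adrb3 were at 0 in both libraries.

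Within the cortex, G0s2 was lower and Scarb1 higher in the cells with the most Cyp11b1 than in those with the least, in both libraries. Cortex cells of each library were ranked by their share of Cyp11b1 UMIs and cut into equal tertiles, which are ranges of a continuous score and not cell types. The top tertile held 2915 CPM of Cyp11b1 in stress and 2880 CPM in control, and the bottom tertile 179 and 57.1 CPM, so the lower tertiles of the libraries were not matched in Cyp11b1.

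Scarb1 stood at 1073 CPM in the top tertile and 458 CPM in the bottom tertile of the stress library, a log2 ratio of 1.23. In the control library it stood at 1013 CPM in the top and 343 CPM in the bottom tertile, a log2 ratio of 1.56. G0s2 went the other way, with 10.0 CPM in the top and 39.8 CPM in the bottom tertile of the stress library (-1.98), and with 19.3 and 93.9 CPM in the control library (-2.28). It was lower in stress in every tertile, by 1.24, 1.03 and 0.93 on the log2 scale, low to high. Scarb1 did not follow Cyp11b1 in every cluster. Cluster 3 had 304 CPM of Cyp11b1 in stress and 217 CPM in control, against 1381 and 903 CPM in cluster 2. Its Scarb1 level was nevertheless higher, at 621 CPM in stress and 467 CPM in control, against 442 and 285 CPM.

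Apoe varied little over the stress tertiles, at 271, 277 and 270 CPM low to high, but in control it was lowest in the top tertile, with 170, 153 and 111 CPM. Soat1 also varied little, at 514, 508 and 491 CPM in stress and 440, 465 and 432 CPM in control, low to high. The top-to-bottom interval for Lipe and for Angptl4 included no difference in both libraries.

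**Figure D3:**
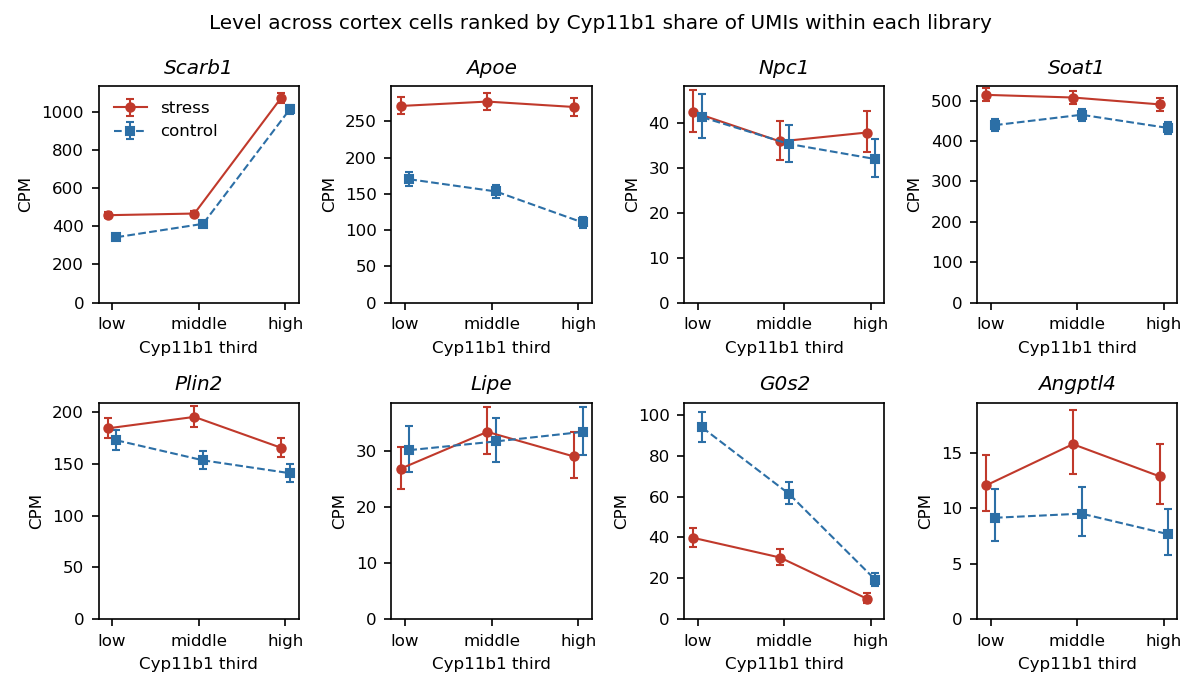
Level of each member in CPM (linear axes from 0) in the low, middle and high tertile of adrenal cortex-like cells ranked by Cyp11b1 share within each library, with exact 95% Poisson intervals (stress, filled circles; control, squares). Scarb1 is highest in the high tertile of both libraries, and G0s2 is lowest there.

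The G0s2 difference was read mainly in the 5 clusters with less Cyp11b1 than clusters 5, 8 and 9. In cluster 6 it stood at 46.6 CPM in stress and 114 CPM in control, in cluster 3 at 30.2 and 89.4 CPM, and in cluster 0 at 38.4 and 59.6 CPM. Cluster 3 was the one with the most Cyp11b2, the aldosterone synthase of the zona glomerulosa, at 113 CPM in stress and 75.9 CPM in control. In clusters 2 and 7 G0s2 was also lower in stress, by 0.85 and 0.65 on the log2 scale.

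The clusters 5 and 8 together had 10.7 CPM of G0s2 in stress and 12.9 CPM in control, with a log2 interval of -0.85 to 0.30. In cluster 9 no G0s2 UMI was counted in stress, where 3 UMIs, taken as the limit that a count of 0 allows, would be 3.90 CPM, against 6 UMIs (11.9 CPM) in control. In cluster 8 the stress cells had 34 UMIs (9.86 CPM), against none in the 36 control cells, where 3 UMIs would be 7.79 CPM. The exact CPM intervals of the libraries overlapped in both clusters. They were 0 to 4.80 in stress and 4.38 to 26.0 in control for cluster 9. For cluster 8 they were 6.83 to 13.8 in stress and 0 to 9.58 in control. The exact interval of the log2 ratio lay wholly below 0 in cluster 9 (upper end -0.85). In cluster 8 it included 0 (lower end -0.04). Outside clusters 5 and 8, G0s2 stood at 30.7 CPM in stress and 73.5 CPM in control (-1.26). With the control library's cluster sizes as weights, its log2 ratio over the class was -0.69.

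**Figure D4:**
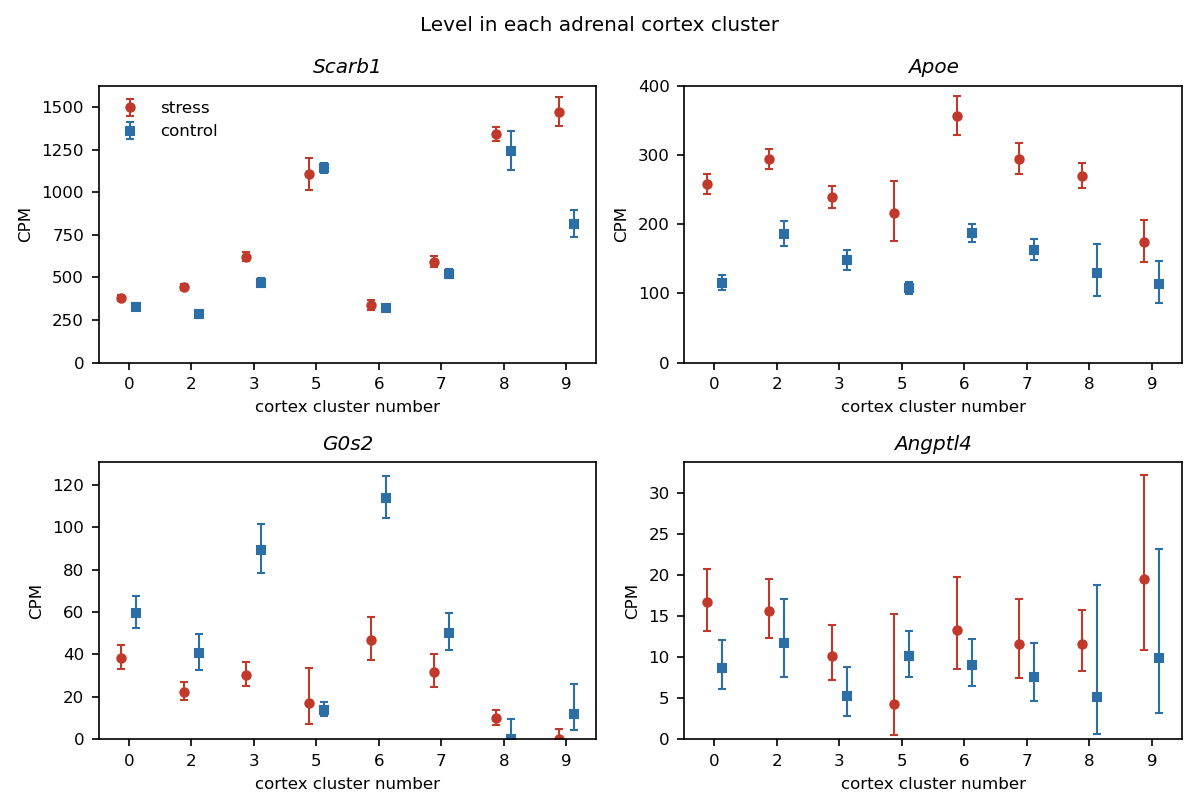
Level of Scarb1, Apoe, G0s2 and Angptl4 in CPM (linear axes from 0) in each of the 8 adrenal cortex clusters, stress as circles to the left and control as squares to the right, with exact 95% Poisson intervals. Apoe is higher in stress in all 8 clusters. G0s2 is lower in stress in clusters 0, 2, 3, 6 and 7, and in cluster 9 on 0 UMIs in stress and 6 in control.

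Scarb1 also depended on the make-up of the class. Outside clusters 5 and 8 it had 513 CPM in stress and 389 CPM in control, a log2 ratio of 0.40, against 0.16 over all cortex cells. In those clusters together it had 1312 and 1148 CPM (0.19). The largest Scarb1 difference was in cluster 9, with 1470 CPM in stress and 811 CPM in control (0.86). The median mitochondrial share of that cluster was 18.8% in stress and 10.2% in control, and its part in the difference was not tested.

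Cluster 9 was marked by Abcb1b, a drug and steroid exporter. In cells thinned to 1000 UMIs, the 161 stress cortex cells with an Abcb1b UMI had 1379 CPM of Scarb1, against 566 CPM in the 1564 without, and the 130 control cells with one had 877 CPM, against 511 CPM in the 1416 without.

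Most other listed genes of cholesterol and lipid handling, triglyceride genes among them, stayed inside 1.5-fold in cortex cells. Of 63 listed genes, 46 reached the minimum and 17 did not. Of the 46, 4 were higher and 5 lower in stress, 37 lay inside, and the median log2 ratio was 0.03. Over all 11489 genes at the minimum in these cells, 2.82% were called higher and 3.3% lower. The genes most abundant in these cells, by CPM without correction for length, differed little. Star, the carrier of cholesterol into mitochondria, had 1956 CPM in stress and 1635 CPM in control (0.26). Tspo, an outer mitochondrial membrane protein, had 1122 and 1091 CPM (0.04), and the lipid carrier Scp2 had 307 and 314 CPM (-0.04).

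Among 14 genes of lipoprotein uptake and efflux, 8 reached the minimum, with a median of 0.001. The scavenger receptor Cd36 was higher, with 3.65 CPM in stress and 1.89 CPM in control (0.94, interval 0.40 to 1.52), on 81 and 42 UMIs. It was no longer called with at most 10% mitochondrial UMIs. Cd36 is also a gene of capillary endothelium, and the 7 endothelial markers summed to 46.0 CPM in stress and 30.7 CPM in control cortex cells (0.58); their part in it was not tested. Mylip, a ubiquitin ligase, was lower, with 1.58 and 2.65 CPM (-0.74, interval -1.40 to -0.12), on 35 and 59 UMIs. The cholesterol exporter Abca1 had 30.9 CPM in stress and 38.6 CPM in control (-0.32), inside the threshold.

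Among 19 genes of droplet coat, storage and lipolysis, 14 reached the minimum, with a median of 0.07, and 2 were higher and 2 lower. Lipa, the lysosomal acid lipase for cholesteryl esters, had 97.9 CPM in stress and 55.5 CPM in control (0.82, interval 0.72 to 0.92). Lipa is abundant in macrophages, whose markers in the cortex class are given above. In cortex cells without a macrophage marker UMI it had 93.4 CPM in stress and 55.3 CPM in control. Dgat2, which completes triglyceride synthesis, had 2.16 and 1.17 CPM (0.87, interval 0.17 to 1.63), on 48 and 26 UMIs.

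The droplet coat genes Plin5 and Plin4 were lower in stress. Plin5 had 7.21 CPM in stress and 16.6 CPM in control, a log2 ratio of -1.20 (interval -1.48 to -0.93). It was the only pathway gene past 2-fold. Its call was lost when the ratio in the other adrenal cells was subtracted, and after thinning to 1000 UMIs. Plin4 had 1.13 and 1.98 CPM (-0.80, interval -1.58 to -0.07), on 25 and 44 UMIs. It was no longer called with at most 10% mitochondrial UMIs or with no cell filter. Plin1 had 103 CPM in stress and 125 CPM in control (-0.28) and Plin3 had 86.1 and 85.0 CPM (0.02), inside the threshold. The ATGL gene Pnpla2, whose product G0s2 inhibits, had 45.8 and 44.7 CPM (0.04), and its activator Abhd5 had 14.1 and 13.6 CPM (0.05).

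Of 13 genes of intracellular sterol transport, 12 reached the minimum, with a median of 0.05, and 1 was called. Stard5, a cytosolic sterol carrier, had 7.03 CPM in stress and 10.9 CPM in control (-0.63). Of 6 angiopoietin-like genes, 2 reached the minimum (median 0.53). Angptl1 had 1.98 CPM in stress and 1.17 CPM in control (0.75, interval 0.03 to 1.52), on 44 and 26 UMIs. Of 11 lipid-sensing regulators, 10 reached the minimum, with a median of -0.05. Insig1, which holds back the sterol-sensing SREBP pathway, had 17.3 CPM in stress and 26.1 CPM in control (-0.60), close to the threshold. It was no longer called with no cell filter, with a mean over cells, or after thinning to 1000 UMIs. The call was also lost when the ratio in the other adrenal cells was subtracted. Srebf1 had 31.2 and 43.6 CPM (-0.48), inside the threshold.

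**Figure D5:**
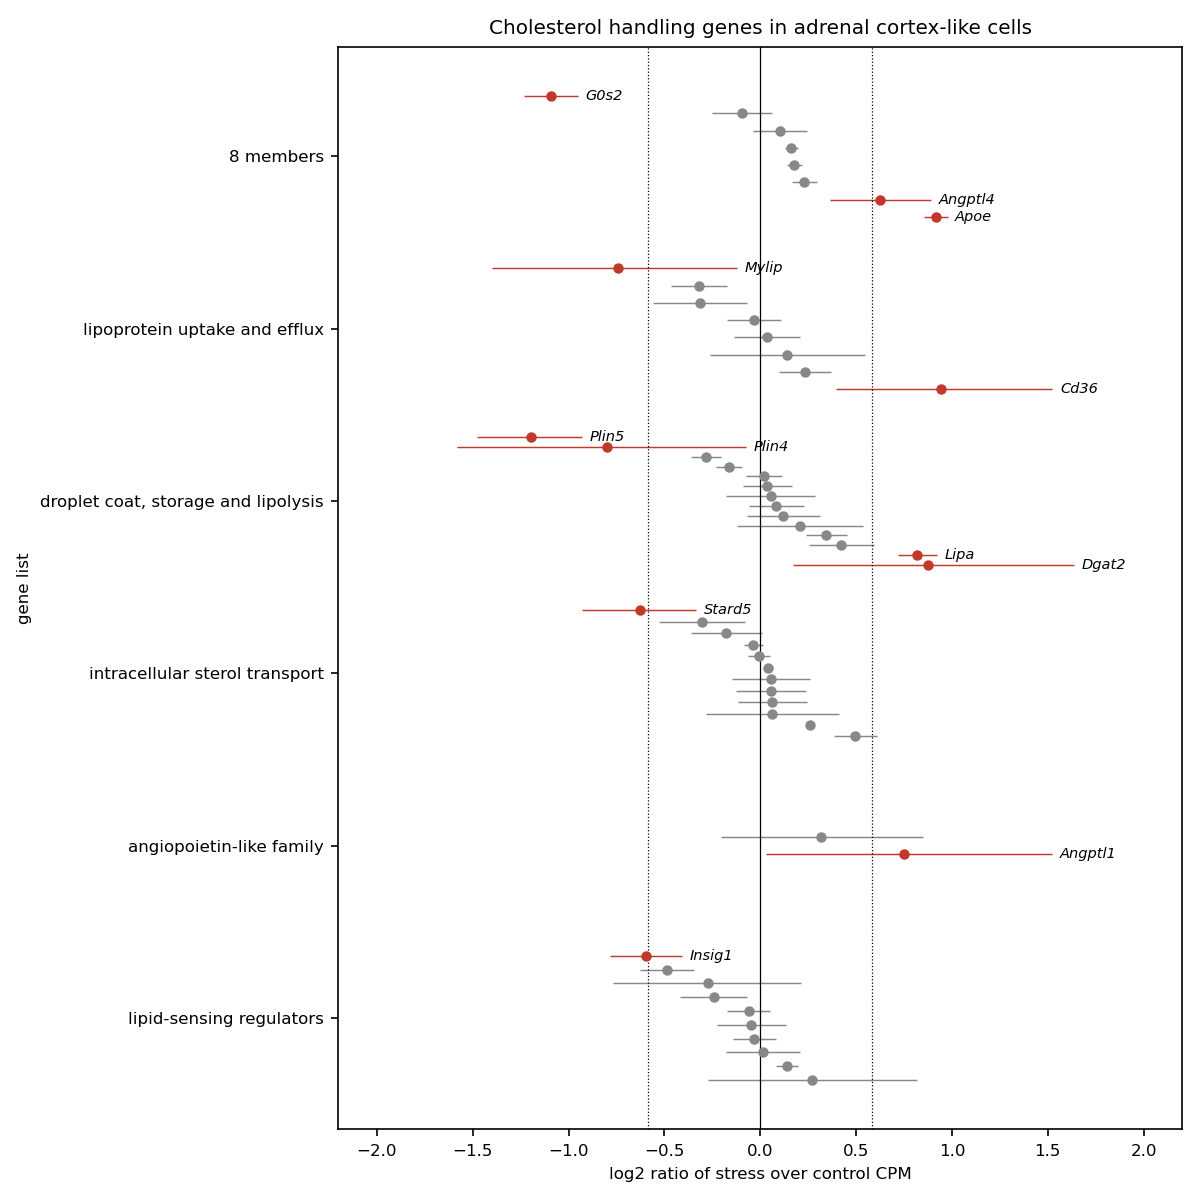
Log2 ratio of stress over control in adrenal cortex-like cells for the 8 members and for the 46 listed genes at the count minimum, with exact 95% intervals (counting error). Dotted lines mark 1.5-fold, and genes past it are red and named: G0s2 and Plin5 lie at -1.09 and -1.20, Apoe and Lipa at 0.91 and 0.82.

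In the other 22 classes, 95 pairs of class and member reached the minimum, 6 were called higher and 3 lower. Over all genes at the minimum in these classes, 3.19% were called higher and 3.81% lower. In adrenal endothelial-like cells Plin2 had 114 CPM in stress and 74.7 CPM in control (0.60, interval 0.15 to 1.09); it was 1 of 4 members at the minimum, and 3.83% of all genes were called higher in that class. No member was called in adrenal macrophage-like cells, where 6 reached the minimum and 9.9% of all genes were called. The median log2 ratio over all genes was off 0 by more than 0.1 in 3 pituitary classes, at -0.21 in somatotrope-like cells, 0.14 in cluster 10 and 0.10 in fibroblast-like cells, and no member was called in the first 2.

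In pituitary fibroblast-like cells (78 stress and 62 control cells), G0s2 had 669 CPM in stress and 397 CPM in control (0.75), and Angptl4 had 337 and 199 CPM (0.76). They were 2 of 3 members at the minimum in that class, in which 10.2% of all genes were called higher and the median over all genes was 0.10. In pituitary macrophage-like cells Plin2 (0.78) and Soat1 (0.79, interval -0.05 to 1.71) were called higher, 2 of 3 members at the minimum, beside 5.42% of all genes. Soat1 rested there on 33 UMIs in stress and 19 in control.

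Apoe accounted for the other pituitary calls. In stem/folliculostellate-like cells it had 357 CPM in stress and 820 CPM in control (-1.20), 1 of 8 members at the minimum, beside 2.97% of all genes called lower. In melanotrope-like cells, a small class of 60 stress and 51 control cells, it had 69.8 and 160 CPM (-1.18). It was the only member at the minimum there, beside 3.45% called lower. In gonadotrope-like cells it had 56.8 and 32.8 CPM (0.79), 1 of 5, beside 2.36% called higher. These levels are far below the 71158 and 51505 CPM of pituitary macrophage-like cells, and the part of free macrophage RNA was not tested.

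The PVN gave a single call. G0s2 in tanycyte-like cells, glia that line the lower walls and floor of the ventricle within the hypothalamus, had 36.4 CPM in stress and 94.2 CPM in control (-1.35, interval -2.15 to -0.66). This rested on 21 UMIs in 71 stress cells and 76 UMIs in 98 control cells, 1 of 4 members at the minimum, beside 4.3% of all genes called lower. The share of these cells with a G0s2 UMI was 22.5% in stress (16 cells, interval 13.5 to 34.0%). In control it was 21.4% (21 cells, interval 13.8 to 30.9%). The shares were close, but their intervals were wide. In control, 1 cell held 15 of the 76 UMIs.

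The genes with the pattern most like each member were taken from 12825 genes, by Pearson r of log2(CPM + 1) over 46 levels (23 classes in both libraries). The levels of 1 class in the stress and control libraries are not independent, and classes of a tissue share a library. Scarb1 was most like Npr1 (0.85) and Serpinb6b (0.84), Plin2 like Arhgap17 and Hmox1 (both 0.88), and Apoe like Agmo (0.89) and Sat1 (0.88). Angptl4 was most like Slc16a9 (0.81), Lipe like Lipa and Aup1 (both 0.82), and Soat1 like Akr1b10 (0.78) and Fam195a (0.77). G0s2 was most like Aldh1a1 and Cdc16 (both 0.78), and Npc1 like Gal3st1 and Kcna1 (both 0.76). Among the members themselves the highest r was 0.69, between Plin2 and Apoe, and the lowest was -0.14, between Scarb1 and Npc1.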

How the data were processed

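The deposited matrices hold the authors' UMI counts per gene and cell barcode, not normalised. The submitters' processing notes name Cell Ranger 2.1.1, the mm10 build and, with no role, Scanpy. No barcode in the files held fewer than 2238 UMIs. Barcodes under 200 genes or over 25% mitochondrial UMIs were removed, and 39 to 213 likely doublets per library were left out at a set rate. Of 3183 stress and 2330 control adrenal barcodes, 378 and 130 exceeded the mitochondrial limit. Libraries held 29059956 to 53244403 UMIs.

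The cells of each tissue were clustered jointly (Leiden, leidenalg 0.10.2, resolution 1, 2000 variable genes, 30 components, 15 neighbours), without the members, the pathway genes or stress-responsive genes among the clustering genes. Clusters were named from listed markers, at least 3 of them found in 10% of cells or more. Clusters with markers of more than 1 class, or with too few markers, stayed unnamed (in all 237 stress and 154 control adrenal cells). In that naming, rules were adjusted after clusters were seen.

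UMIs were summed per class and library, and 0.5 UMI was added for log2 ratios. Intervals for counts and ratios are exact, and shares have Clopper-Pearson intervals. For thinning, all cells held over 1000 UMIs. Named were all members, the pathway genes called in cortex cells, the 3 highest, and for likeness genes of at least 20 CPM in some class. Some genes that these rules or lists hold are not reported here. The remaining pathway genes with values, and the search for core promoter letters, were chosen after values were seen. The calculations were tested on simulated counts. Coordinates are from GENCODE vM21 and promoters from RefSeq. The members and lists were chosen with earlier results of these data known. Python 3.11.15, numpy 2.4.6 and scipy 1.17.1 were used.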

Additional observations from a re-analysis of the deposited data

Results flagged for a closer look

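For a pair of members, calls pointed in opposite directions in different cell classes, and the difference between the classes was not tested. G0s2 had a log2 ratio of stress over control of -1.09 in adrenal cortex-like cells and -1.35 in PVN tanycyte-like cells, against 0.75 in pituitary fibroblast-like cells. Apoe had 0.91 in adrenal cortex-like cells and 0.79 in pituitary gonadotrope-like cells, against -1.18 in melanotrope-like and -1.20 in stem/folliculostellate-like cells of the pituitary. Each ratio compares 1 stress with 1 control library.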

How the results depend on the processing

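No paired analysis was possible because each group held 1 library. Leaving out a replicate was not possible for the same reason. Of the 3 members called in cortex cells, 1 (G0s2) remained with the marker gate and 1 (G0s2) at 2-fold. G0s2 kept its direction and its call under all 13 alternatives that give a ratio, with log2 ratios from -1.26 to -0.69, and Apoe kept its direction, from 0.48 to 1.22. Angptl4 reversed to -0.15 when the ratio in the other adrenal cells was subtracted, and otherwise ranged up to 1.15. Scarb1 ranged from 0.07 to 0.40, Soat1 from 0.13 to 0.22, Lipe from -0.35 to -0.03, Plin2 from -0.06 to 0.27 and Npc1 from -0.003 to 0.52.

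Of the 9 pathway genes called, 1 of 4 calls was shared after thinning to 1000 UMIs, when 30 genes reached the minimum. The calls numbered 4 at a minimum of 200 UMIs, 1 at 2-fold and 3 without cells that held a macrophage marker UMI, an alternative chosen after seeing the data. In the other classes the 9 calls became 18 with the ratio of the other cells subtracted, 27 at a minimum of 10 UMIs, 5 at 200 UMIs, 32 at a lower fold threshold and 3 at 2-fold. The class with the highest level was the same for 7 or 8 of 8 members under every alternative run; Scarb1 changed when doublets were kept and with no cell filter, and G0s2 with a mean over cells. Alternatives that left out cortex clusters 5 and 8, or 9, were also chosen after seeing the data and kept all 3 members called. Depth limits Angptl4 and G0s2 in single clusters. With 1 library per group, differences between mice and between libraries cannot be told apart from stress.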
